A study of Homo sapiens with 17 samples.

Results

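The genes described here encode the histone variant H2A.Z and the machinery that places it in chromatin. They were listed by name: H2AZ1, H2AZ2, SRCAP, ZNHIT1, ACTR6, VPS72, RUVBL2, EP400, KAT5 and EPC1, 10 of 38147 annotated protein-coding and long non-coding genes (RefSeq, hg38). H2A.Z replaces the canonical histone H2A in nucleosomes on either side of active gene starts. In human cells the SRCAP complex and the TIP60 complex, whose large ATPases are SRCAP and EP400, exchange an H2A dimer for an H2A.Z dimer, and the TIP60 complex also acetylates histones through KAT5. The genes are thus both makers of the mark and, at their own promoters, places where it can be measured.

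Chromatin came from HCC1954, an established HER2-positive breast cancer cell line, transfected with antisense oligonucleotides and fixed 72 h later. The labels name the arms Si1235 and NC1235 without spelling out either prefix; LINC01235, a long non-coding RNA, is named in the title of the series. Chromatin immunoprecipitation sequencing (ChIP-seq) gave 2 libraries per arm for each of H2AZ, H3K27ac and H3K36me3, and 1 per arm for H3K9ac. The remaining samples were 1 input per arm, not used here, and 1 ChIRP library (chromatin isolation by RNA purification) titled NC1235, in which probes recover DNA near a chosen RNA that the labels do not name. Both arms were transfected, and no untransfected sample was analysed here. Whether replicates came from separate cultures is not given in the labels, so p-values measure only library-to-library spread, which may be technical.

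H2AZ, H3K27ac and H3K9ac were measured as the percent of a window 1 kb either side of the gene start that the authors' peaks cover. H3K36me3, which is laid down over transcribed gene bodies, was measured as the percent of the gene covered. The H2AZ lists held 42759 to 51229 peaks and the H3K27ac lists 44836 to 48391. H3K36me3 had 67302 to 81320, and H3K9ac had 60035 in Si1235 and 59945 in NC1235. Read depth is not stated in them. H2AZ peaks covered 44.8 and 35.8 Mb in the Si1235 replicates 1 and 2, against 45.5 and 37.7 Mb in the NC1235 replicates 1 and 2, so replicate 2 covered less in both arms. In both NC1235 H3K27ac lists the summit pileups were not whole numbers (0.0 and 0.1% of those solved), whereas they were whole in the other 13 lists. That difference in how the lists were made and the arm cannot be told apart for any H3K27ac comparison. The cell type label was checked on fixed marker lists by mean cover over libraries. H2AZ did not separate the lists. Its median was 6.4% at epithelial genes (0 to 80.9%), and it reached 49.3% at lymphoid and myeloid and 40.4% at fibroblast markers. At HER2 amplicon genes H2AZ covered 74.4 to 92.7%. H3K9ac covered 76.4 to 100% at epithelial genes, against at most 61.2% at lymphoid and myeloid, 9.0% at endothelial and 39.7% at fibroblast markers. H3K27ac covered 72.5 to 100% of the windows of 6 epithelial genes and 88.1 to 100% at 3 genes of the HER2 amplicon. It reached at most 39.2% at lymphoid and myeloid, 20.2% at endothelial and 13.5% at fibroblast markers, and was above 5% at 2 of 3, 1 of 2 and 1 of 3 of those measured. H3K36me3 covered 5 of 6 epithelial genes (0% at KRT19, 10.9% at KRT8, otherwise 69.1 to 76.0%) and 50.1 to 65.6% of the HER2 amplicon genes. It covered 0% of the lymphoid, myeloid and fibroblast markers measured. At most it covered 17.3% of an endothelial one, PECAM1, which was more than at KRT8 and KRT19.

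The 250 bases before the start are shown for the genes on which the results turn: the 2 H2A.Z genes themselves, and KAT5 and EPC1, which had the lowest unadjusted limma p of the 10 for H2AZ and H3K27ac. Sequences are those of RefSeq (GRCh38.p14), 5′ to 3′ on the strand of the gene, ending at the base before the start. Capitals mark exact matches, on either strand, to the CCAAT box (CCAAT), the TATA box (TATAAA), the GC box (GGGCGG), the E-box (CACGTG) and an ETS core (CCGGAAG), none of which overlap here. H2AZ1 lies at chr4:99950276-99950525 (minus strand), H2AZ2 at chr7:44848088-44848337 (minus), KAT5 at chr11:65712002-65712251 (plus) and EPC1 at chr10:32378770-32379019 (minus). The KAT5 start used, 65712252, lies inside the annotated gene, which begins at 65712018, so most of its stretch is within the gene. The H2AZ2 start used, 44848087, also lies inside its gene, whose upstream end is 44848126. All distances are from the starts used.
H2AZ1: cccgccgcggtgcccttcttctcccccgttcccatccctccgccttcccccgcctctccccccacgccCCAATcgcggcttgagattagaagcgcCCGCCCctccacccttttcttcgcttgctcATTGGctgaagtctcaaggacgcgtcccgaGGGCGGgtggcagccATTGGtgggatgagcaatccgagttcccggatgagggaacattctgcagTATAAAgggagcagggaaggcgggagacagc
H2AZ2: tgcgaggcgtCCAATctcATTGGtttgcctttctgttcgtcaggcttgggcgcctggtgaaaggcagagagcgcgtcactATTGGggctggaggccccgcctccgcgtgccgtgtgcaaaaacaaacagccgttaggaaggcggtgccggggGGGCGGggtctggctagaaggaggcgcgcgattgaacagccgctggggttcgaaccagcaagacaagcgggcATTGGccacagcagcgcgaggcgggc
KAT5: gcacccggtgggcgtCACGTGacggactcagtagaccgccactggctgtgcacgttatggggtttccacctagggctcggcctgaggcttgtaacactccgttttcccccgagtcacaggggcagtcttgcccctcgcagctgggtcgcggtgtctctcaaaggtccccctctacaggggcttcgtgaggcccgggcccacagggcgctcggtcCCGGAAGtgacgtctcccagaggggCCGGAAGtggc
EPC1: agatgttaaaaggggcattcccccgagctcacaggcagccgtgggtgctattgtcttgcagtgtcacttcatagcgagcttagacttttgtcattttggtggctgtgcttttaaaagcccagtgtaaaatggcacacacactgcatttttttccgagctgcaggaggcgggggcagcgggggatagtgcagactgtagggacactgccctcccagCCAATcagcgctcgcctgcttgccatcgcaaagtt

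The H2AZ1 stretch holds 3 CCAAT boxes, 2 GC boxes and a TATA box 31 to 26 bases before the start. The H2AZ2 stretch holds 4 CCAAT boxes and 1 GC box, with no TATAAA. KAT5 has 1 E-box and 2 ETS cores, the nearer one 11 to 5 bases before the start. The EPC1 stretch at its first start holds a single CCAAT box, 35 to 31 bases before the start, and has 9 CG dinucleotides against 19 in H2AZ1, 23 in H2AZ2 and 19 in KAT5. Across 35114 promoters of the same length, CCAAT occurred in 32.0%, TATAAA in 10.7%, GGGCGG in 42.6%, CACGTG in 6.35% and CCGGAAG in 8.52%. Of the 10 genes, 9 matched the promoter table, and before the start used for the window CCAAT was found in 4 of these, TATAAA in 2, GGGCGG in 6, CACGTG in 1 and CCGGAAG in 4. A match is a run of letters and not a measured site.

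All 10 promoters carried H2AZ, H3K27ac and H3K9ac peaks in every library in which those marks were profiled, so the comparison between arms concerned how far the peaks reached. No gene of the 10 differed between Si1235 and NC1235 after adjustment over all genes (limma with Benjamini-Hochberg adjustment). For H2AZ, 0 of 17474 tested genes passed (0.0%), while 1046 had an unadjusted limma p under 0.05 (5.99%), and among the 10 genes only KAT5 did. For H3K27ac 80 of 15511 genes passed (0.516%), 37 higher (0.239%) and 43 lower (0.277%) in Si1235, and 0 of the 10, with EPC1 and ZNHIT1 at an unadjusted limma p under 0.05 (14.1% of all tested genes). For H3K36me3 0 of 8349 genes passed (0.0%), 663 had an unadjusted limma p under 0.05 (7.94%), and among the 10 only RUVBL2 did. The H3K27ac total and its split depended on single libraries. Without Si1235 replicate 1 or 2 it was 279 (12 higher, 267 lower) and 137 (5 higher, 132 lower), and without NC1235 replicate 1 or 2 it was 326 (319 higher, 7 lower) and 239 (237 higher, 2 lower). For H3K36me3 the same omissions gave 58, 110, 114 and 37 in place of 0, and none of the 10 genes was among those passing.

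The arms did not overlap at some of the 10 genes, as at many others. For H2AZ, 3 of the 10 genes had both Si1235 libraries above both NC1235 libraries and 0 had both below, against 20.9% and 10.7% of all tested genes (31.6% in either direction). For H3K27ac 2 were higher and 2 lower (23.2 and 17.7% of all tested genes, 40.9% in either direction), and for H3K36me3 3 were higher and 2 lower (20.3 and 13.7%, 34.0% in either direction). The median difference over the 10 genes, Si1235 minus NC1235, was 0.4 percentage points for H2AZ, where all tested genes had a median of 1.2. It was -0.18 for H3K27ac (all tested genes 0.0) and 1.3 for H3K36me3 (all tested genes 0.69). With 2 libraries against 2, an exact permutation test of a single value cannot go below p = 0.333.

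**Figure D1:**
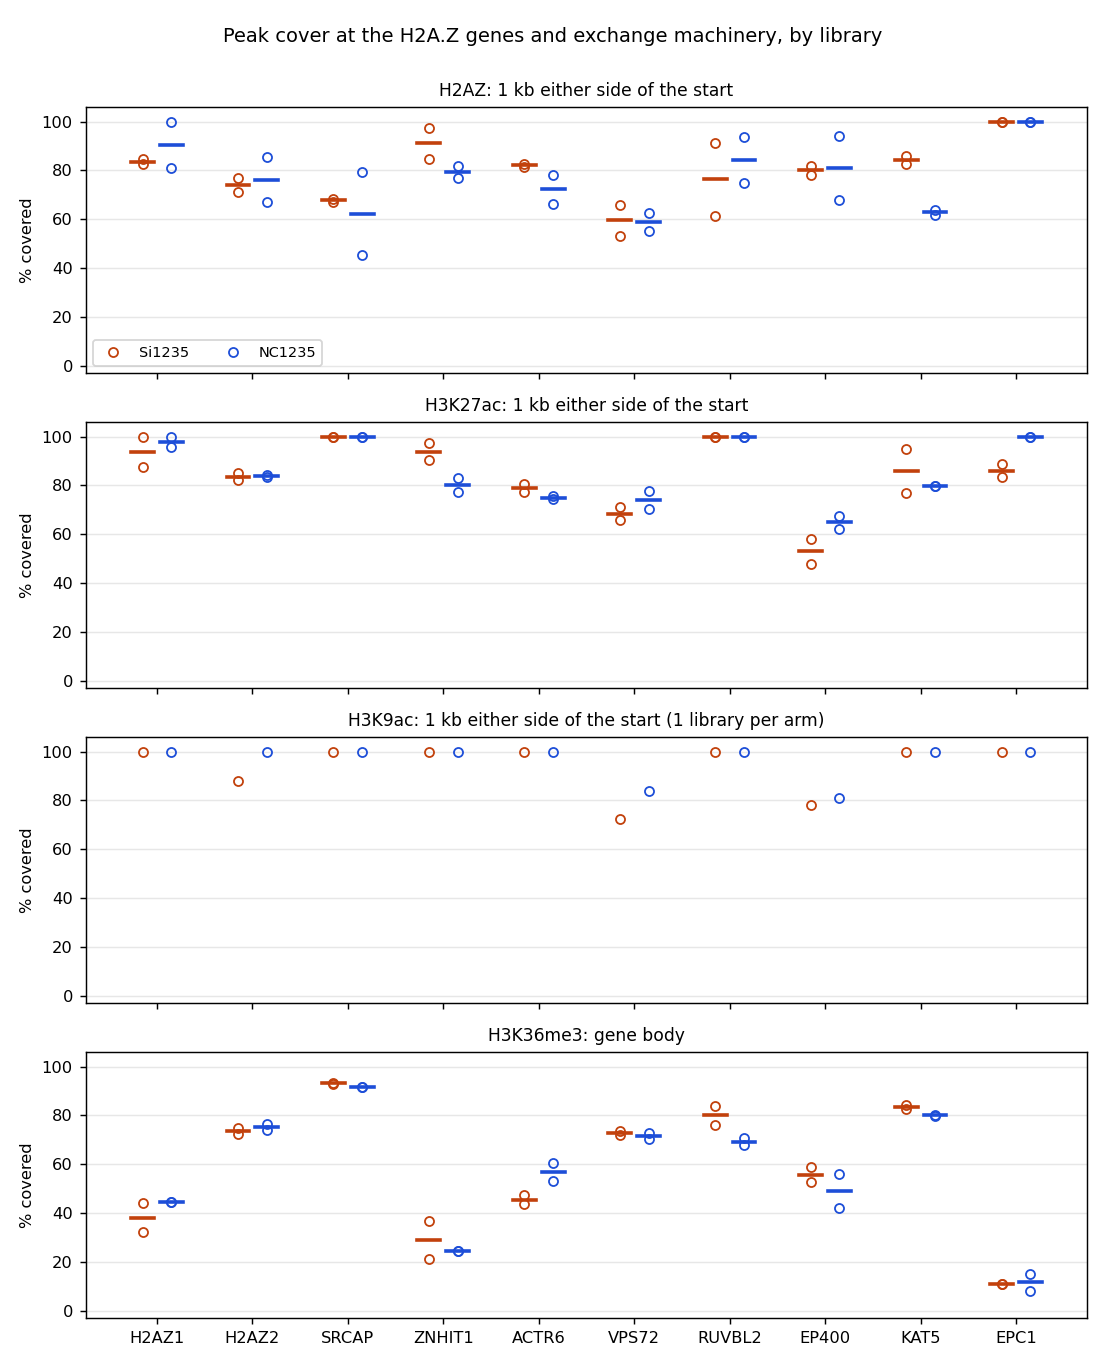
Percent of the promoter window (H2AZ, H3K27ac, H3K9ac) or gene body (H3K36me3) covered by peaks, for each of the 10 genes; open circles are single libraries, Si1235 to the left of NC1235, and bars are means of 2. Both Si1235 libraries lie above both NC1235 libraries for H2AZ at KAT5, ACTR6 and ZNHIT1, and EPC1 is at 100% for H2AZ in all 4.

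H2AZ1 (GeneID 3015, chromosome 4, 99948088 to 99950275, minus strand) encodes the main H2A.Z isoform. H2AZ peaks covered 84.6 and 82.7% of its window in Si1235, against 100% and 80.95% in NC1235. Both Si1235 values lay between the NC1235 values. The difference was -6.82 points (SE 7.52; limma adjusted p = 0.919), and it was -15.4 within replicate 1 and 1.75 within replicate 2. In 3 of the 4 libraries the start itself lay in a break between 2 H2AZ peaks: from -275 to 32 and from -293 to 50 in Si1235, and from -297 to 47 in NC1235 replicate 2, in bases from the start. In NC1235 replicate 1 a single peak of 2183 bp bridged this stretch, which contains the printed CCAAT, GC and TATA matches. Start bases lay under an H2AZ peak at 85.3 and 76.5% of all tested genes in Si1235 and at 84.1 and 75.5% in NC1235.

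H3K27ac covered 99.95 and 87.55% of the H2AZ1 window in Si1235, against 95.7 and 100% in NC1235, with overlapping arms (-4.1 points, SE 5.51; limma adjusted p = 0.863). The lower Si1235 library was the only one of 4 with a break, 249 bases wide, just before the start. H3K9ac covered the whole window in both arms, from 1 peak of 3710 bp in Si1235 and 1 of 6775 bp in NC1235. Both peaks ran past the end of the gene, to 2543 bases from the start in Si1235 and 5524 in NC1235. Their summits lay 692 bases downstream in Si1235 and 3877 in NC1235, so the NC1235 summit was beyond the gene. H3K36me3 covered 43.9 and 32.4% of the gene in Si1235, against 44.4 and 44.5% in NC1235. Si1235 replicate 1 was close to the NC1235 libraries and replicate 2 was lower, giving -6.28 points (SE 6.66; limma adjusted p = 0.937). With the gene cut into 5 equal bins from start to end, the mark was absent from bins 1 and 2 of this 2.2 kb gene and covered bin 5 entirely in all 4 libraries. A long non-coding gene, H2AZ1-DT, starts 219 bases from H2AZ1, so its promoter shares the window.

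H2AZ2 (GeneID 94239, chromosome 7, 44826889 to 44848126, minus strand) encodes the closely related second isoform. H2AZ covered 71.25 and 77.1% of its window in Si1235, against 85.35 and 67.25% in NC1235. The Si1235 values again lay between the NC1235 values (-2.12 points, SE 8.08; limma adjusted p = 1.0; -14.1 within replicate 1 and 9.85 within replicate 2). The same 3 libraries as at H2AZ1 had a break, here upstream of the start, at -316 to -43 and -313 to -64 in Si1235 and at -305 to -38 in NC1235 replicate 2.

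H3K27ac left the H2AZ2 start uncovered in all 4 libraries, with breaks of 297 and 359 bases in Si1235 and 328 and 314 bases in NC1235. Cover of the window was 85.15 and 82.05% in Si1235, against 83.6 and 84.3% in NC1235, a difference of -0.35 points (limma adjusted p = 1.0). Beyond the window the downstream H3K27ac peak ended at 1096 and 1056 bases in Si1235, against 2657 and 2380 bases in NC1235. Within 2.5 kb either side H3K27ac covered 60.9 and 60.3% in Si1235, against 69.1 and 64.9% in NC1235. Arms did not overlap in that window, and the difference of -6.4 points had a limma adjusted p of 0.272. Within 5 kb it was -0.44 points (limma adjusted p = 0.922). H3K9ac covered 88.1% in Si1235, where 2 peaks left a break of 238 bases, against 100% in NC1235, where 1 peak of 4909 bp lay across the start. H3K36me3 covered 74.9 and 72.5% of the 21.2 kb gene in Si1235, against 76.4 and 74.2% in NC1235 (limma adjusted p = 0.979). H2AZ2-DT starts 384 bases away.

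**Figure D2:**
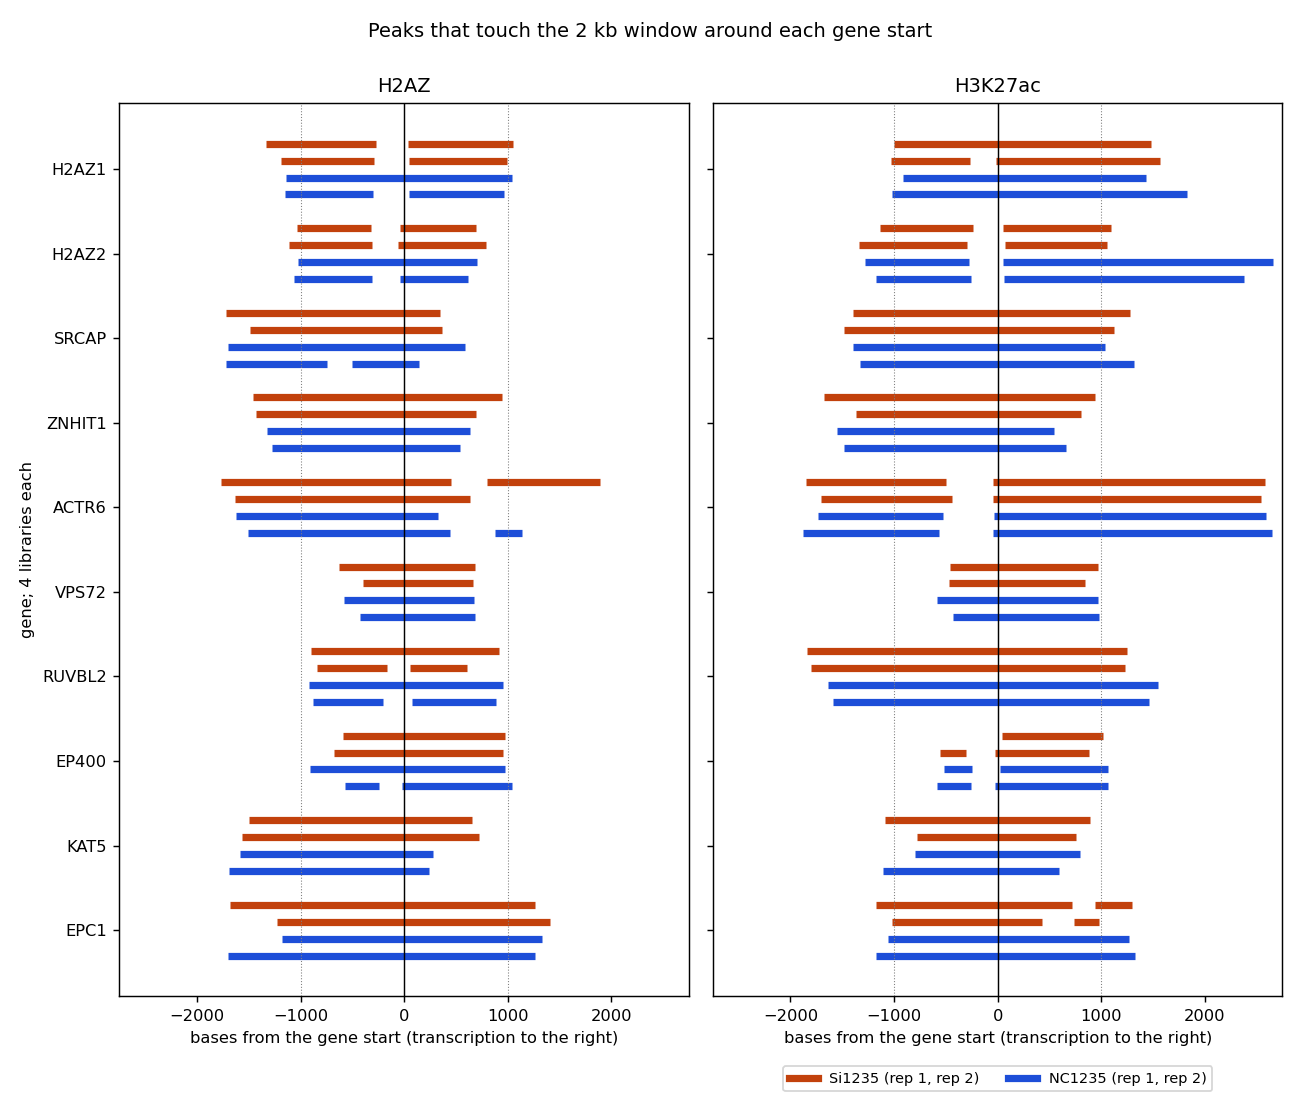
Extent of each H2AZ (left) and H3K27ac (right) peak that touches the promoter window, in bases from the gene start, with the 4 libraries of a gene stacked (2 Si1235 above 2 NC1235); dotted lines mark the window, and longer peaks are cut off at the edge of the plot. The H2AZ1 start is uncovered by H2AZ in 3 of 4 libraries, the H2AZ2 start by H3K27ac in all 4, and the downstream H2AZ edge at KAT5 lies further out in both Si1235 libraries.

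Of the SRCAP complex genes, SRCAP itself (GeneID 10847, chromosome 16, 30699171 to 30741409, plus strand), the exchange ATPase, had H2AZ over 67.25 and 68.2% of its window in Si1235, against 79.3 and 45.2% in NC1235. The wide NC1235 spread enclosed both Si1235 values (5.47 points, SE 13.54; limma adjusted p = 0.987), with -12.05 points within replicate 1 and 23.0 within replicate 2. H3K27ac covered the window fully in all 4 libraries. Its fold enrichment, the authors' value for a peak summit over local background, placed the SRCAP peak in the top 0.8 and 1.2% of the Si1235 lists and the top 4.6 and 7.8% of the NC1235 lists, ranks of separate lists that show no change by themselves. At VPS72 the order of the arms was the other way, with the peak in the top 27.5 and 20.3% of the Si1235 lists and the top 4.6 and 3.8% of the NC1235 lists. H3K9ac was complete within 1 kb in both arms, and its peak ended 1336 bases downstream in Si1235 and 2435 bases in NC1235. SRCAP had the most complete H3K36me3 of the 10 genes, with 93.18 and 92.99% in Si1235, against 91.52 and 91.71% in NC1235. Both Si1235 values were higher, by 1.47 points on average (SE 1.44; limma adjusted p = 0.918), and 99.1% of tested genes had a mean cover at or below that of SRCAP. LOC730183 starts 111 bases from SRCAP.

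ZNHIT1 (GeneID 10467, chromosome 7, 101218165 to 101224190, plus strand), a subunit specific to the SRCAP complex, was higher in both Si1235 libraries for H2AZ and H3K27ac, while H3K9ac covered its whole window in both arms. H2AZ covered 97.35 and 84.9% in Si1235, against 81.65 and 77.1% in NC1235, a difference of 11.75 points (SE 5.45; limma adjusted p = 0.903) that was 5.53 without Si1235 replicate 1 and 17.98 without Si1235 replicate 2. H3K27ac covered 97.2 and 90.25% in Si1235, against 77.4 and 82.9% in NC1235, a difference of 13.57 points (SE 3.77; limma adjusted p = 0.325). Arms did not overlap for either mark. The peaks began more than 1 kb upstream in every library, and the arms differed at the downstream edge. That edge lay at 947 and 698 bases for H2AZ in Si1235, against 633 and 542 in NC1235. For H3K27ac it lay at 944 and 805 bases in Si1235, against 548 and 658 in NC1235. The H3K9ac edge lay at 1507 bases in Si1235, against 1745 in NC1235. Differences at least as large were found at 13.9% of tested genes for H2AZ and 11.4% for H3K27ac. H3K36me3 over the 6.0 kb gene was 36.7 and 21.3% in Si1235, against 24.3 and 24.5% in NC1235, with the Si1235 values on both sides. PLOD3, a collagen-modifying enzyme gene, starts 584 bases from ZNHIT1.

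ACTR6 (GeneID 64431, chromosome 12, 100200815 to 100224424, plus strand) encodes an actin-related subunit of the SRCAP complex. H2AZ covered 82.75 and 81.6% in Si1235, against 66.4 and 78.25% in NC1235. Arms did not overlap, and the difference was 9.85 points (SE 5.63; limma adjusted p = 0.903), 16.35 within replicate 1 and 3.35 within replicate 2. H3K27ac covered 77.35 and 80.4% in Si1235, against 75.75 and 74.3% in NC1235, higher by 3.85 points (SE 2.36; limma adjusted p = 0.647), with a break before the start in all 4 libraries. H3K36me3 ran the other way, with 47.2 and 43.5% of the gene in Si1235, against 60.6 and 53.0% in NC1235. Arms did not overlap (-11.43 points, SE 6.18; limma adjusted p = 0.743). The difference lay mainly in bin 4, where cover was 37.1 and 15.9% in Si1235, against 62.8 and 56.5% in NC1235.

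VPS72 and RUVBL2 belong to both complexes. VPS72 (GeneID 6944, chromosome 1, 151176304 to 151190197) encodes the subunit that binds the H2A.Z dimer, and its start was taken as whichever gene end had more cover by the other promoter marks. H2AZ covered 66.05 and 53.1% in Si1235, against 62.4 and 55.15% in NC1235, with overlapping arms and a difference of 0.8 points. H3K27ac covered 71.25 and 65.7% in Si1235, against 77.65 and 70.55% in NC1235, also overlapping (-5.62 points, SE 4.29; limma adjusted p = 0.715). H3K9ac covered 72.55% in Si1235, against 83.85% in NC1235. H3K36me3 covered 73.6 and 71.8% in Si1235, against 72.8 and 70.4% in NC1235, a difference of 1.13 points.

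RUVBL2 (GeneID 10856, chromosome 19, 48993448 to 49015995, plus strand) encodes an AAA+ ATPase of the scaffold ring. Its H2AZ cover was 91.25 and 61.45% in Si1235, against 93.65 and 74.9% in NC1235, and replicate 2 was lower than replicate 1 in both arms (-7.93 points, SE 13.78; limma adjusted p = 0.966). In both replicate 2 libraries the start lay in a break, from -166 to 54 in Si1235 and from -199 to 78 in NC1235. H3K27ac and H3K9ac covered the whole window in all libraries. At a second annotated start, 439 bases downstream, H3K27ac covered 90.65 and 89.6% in Si1235, against 100% in both NC1235 libraries, with arms that did not overlap and no test made there. H3K36me3 covered 83.9 and 76.0% of the gene in Si1235, against 70.7 and 67.7% in NC1235. Both Si1235 libraries were higher, by 10.75 points (SE 3.9; limma adjusted p = 0.547). Bin 2 of the gene held 75.9 and 79.9% in Si1235, against 53.7 and 47.5% in NC1235, and bins 3 and 4 were full in all 4 libraries. Differences at least as large occurred at 11.7% of tested genes. GYS1, the muscle glycogen synthase gene, starts 139 bases from RUVBL2.

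Of the TIP60 complex genes, KAT5 (GeneID 10524, chromosome 11, 65712018 to 65719604, plus strand), its acetyltransferase, had the largest H2AZ difference of the 10. H2AZ covered 82.75 and 86.0% of the window in Si1235, against 63.8 and 61.85% in NC1235. The arms were well apart, at 84.4 ± 2.3% in Si1235 and 62.8 ± 1.38% in NC1235 (SD, n = 2 each). The difference of 21.55 points (SE 3.89) had a limma adjusted p of 0.701, and was 18.95 within replicate 1 and 24.15 within replicate 2. Differences at least as large were found at 3.18% of tested genes. The downstream edge lay at 655 and 720 bases in Si1235, against 276 and 237 in NC1235. Upstream, the edge lay beyond the window in every library and further out in NC1235. There it was at -1496 and -1568 bases in Si1235, against -1588 and -1694 in NC1235. H3K27ac did not show this pattern, with 94.75 and 76.75% in Si1235, against 79.85 and 79.65% in NC1235 and overlapping arms (6.0 points, SE 7.65; limma adjusted p = 0.848). H3K9ac was 100% in both arms. H3K36me3 covered 84.3 and 82.7% of the gene in Si1235, against 80.4 and 79.75% in NC1235, higher by 3.45 points (SE 2.39; limma adjusted p = 0.838). In its bin 1 the cover was 36.2 and 24.1% in Si1235, against 19.1 and 14.3% in NC1235. RNASEH2C overlaps 1932 bp of KAT5, and over the 74.5% of KAT5 that no other gene overlaps the H3K36me3 difference was 3.61 points.

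EP400 (GeneID 57634, chromosome 12, 131949942 to 132080460, plus strand) encodes the exchange ATPase of the TIP60 complex. H2AZ covered 78.25 and 81.8% in Si1235, against 94.05 and 67.7% in NC1235, the Si1235 values lying between (-0.85 points, SE 10.57; limma adjusted p = 1.0; -15.8 within replicate 1 and 14.1 within replicate 2). H3K27ac covered 47.95 and 58.0% in Si1235, against 62.35 and 67.5% in NC1235, the lowest H3K27ac cover of the 10 genes in each library. Arms did not overlap (-11.95 points, SE 4.9; limma adjusted p = 0.486). A narrow upstream peak was present in 3 of 4 libraries and missing from Si1235 replicate 1, and without that library the difference was -6.92 points. H3K9ac covered 78.2% in Si1235, against 80.85% in NC1235. H3K36me3 covered 58.7 and 52.8% of this 130.5 kb gene in Si1235, against 56.1 and 42.0% in NC1235, overlapping (limma adjusted p = 0.934).

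EPC1 (GeneID 80314, chromosome 10, 32267751 to 32378769, minus strand) encodes a scaffold subunit of the TIP60 complex. H2AZ covered 100% of its window in all 4 libraries, as did H3K9ac in both. H3K27ac covered 88.7 and 83.5% in Si1235, against 100% in both NC1235 libraries. The arms did not overlap (-13.9 points, SE 2.19; limma adjusted p = 0.178). In each Si1235 library the H3K27ac peak was interrupted downstream of the start, from 715 to 940 and from 429 to 737 bases, and a weak short peak followed, whereas NC1235 had 1 unbroken peak of 2330 and 2503 bp. Both NC1235 libraries were at the ceiling of the measure, as their peaks ran past the window on both sides. The difference was -16.5 points without Si1235 replicate 1 and -11.3 without Si1235 replicate 2. Only these fits passed the threshold, each with the remaining Si1235 library assumed to vary like the NC1235 ones, which had no spread. At a further annotated start 31.6 kb inside the gene, H3K27ac covered 71.2 and 80.85% in Si1235, against 73.8 and 74.7% in NC1235. There H2AZ covered 84.9 and 80.0% in Si1235, against 72.9 and 72.55% in NC1235. EPC1 had the lowest H3K36me3 of the 10 genes, with 11.1 and 10.7% in Si1235, against 15.2 and 8.0% in NC1235, most of it in bin 5. The long non-coding gene EPC1-AS1 overlaps 27125 bp of EPC1.

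**Figure D3:**
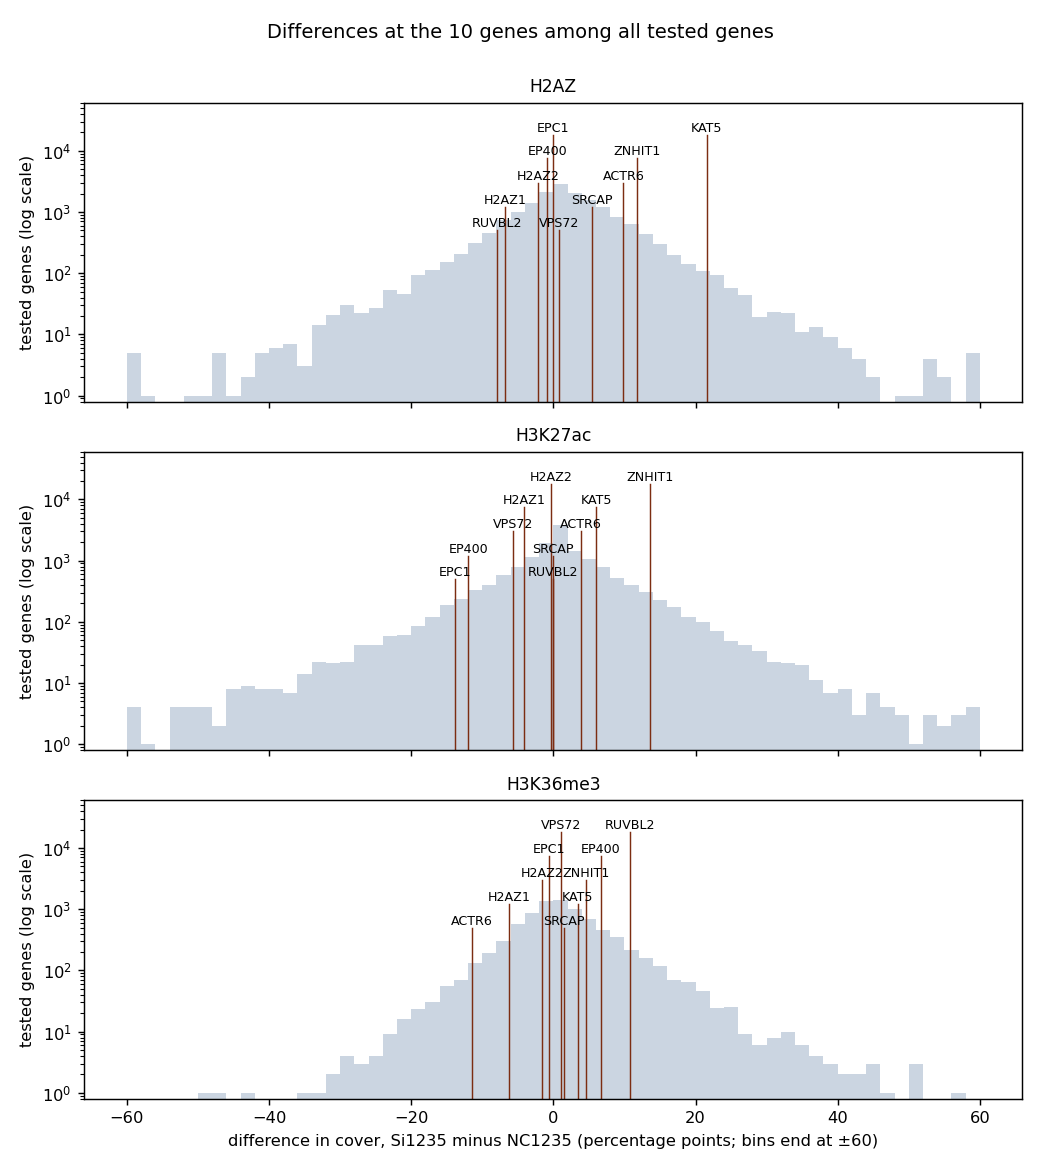
Difference in cover, Si1235 minus NC1235 in percentage points (x axis), for all tested genes of a mark (grey bars, counts on a log scale) with the 10 genes marked by labelled lines whose heights carry no value. KAT5 is at 21.55 points for H2AZ, EPC1 at -13.9 and ZNHIT1 at 13.57 for H3K27ac, and ACTR6 at -11.43 and RUVBL2 at 10.75 for H3K36me3, all within the range of the other genes.

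Set in order of mean H2AZ cover over the 4 libraries, the promoters ran from EPC1 (100%) through H2AZ1 (87.1%), ZNHIT1 (85.2%), EP400 (80.4%), RUVBL2 (80.3%), ACTR6 (77.2%), H2AZ2 (75.2%), KAT5 (73.6%) and SRCAP (65.0%) to VPS72 (59.2%). The ranges of every pair of neighbours in this order overlapped or touched. H3K36me3 separated the genes more sharply. SRCAP (92.4%) stood above KAT5 (81.8%) without overlap, followed by RUVBL2 (74.6%), H2AZ2 (74.5%) and VPS72 (72.2%). EP400 (52.4%), ACTR6 (51.1%) and H2AZ1 (41.3%) were clear of VPS72, and EPC1 (11.2%) was clear of ZNHIT1 (26.7%). By mean over the 4 libraries, bin 1 held under 30% and bin 5 more than bin 1 in 9 of the 10 genes. SRCAP was the exception on both counts, with 86.4% in bin 1 and 80.6% in bin 5. The same counts were not made over all genes, so they describe the 10 genes only. Bins scale with gene length, so bin 1 differs in width between genes.

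**Figure D4:**
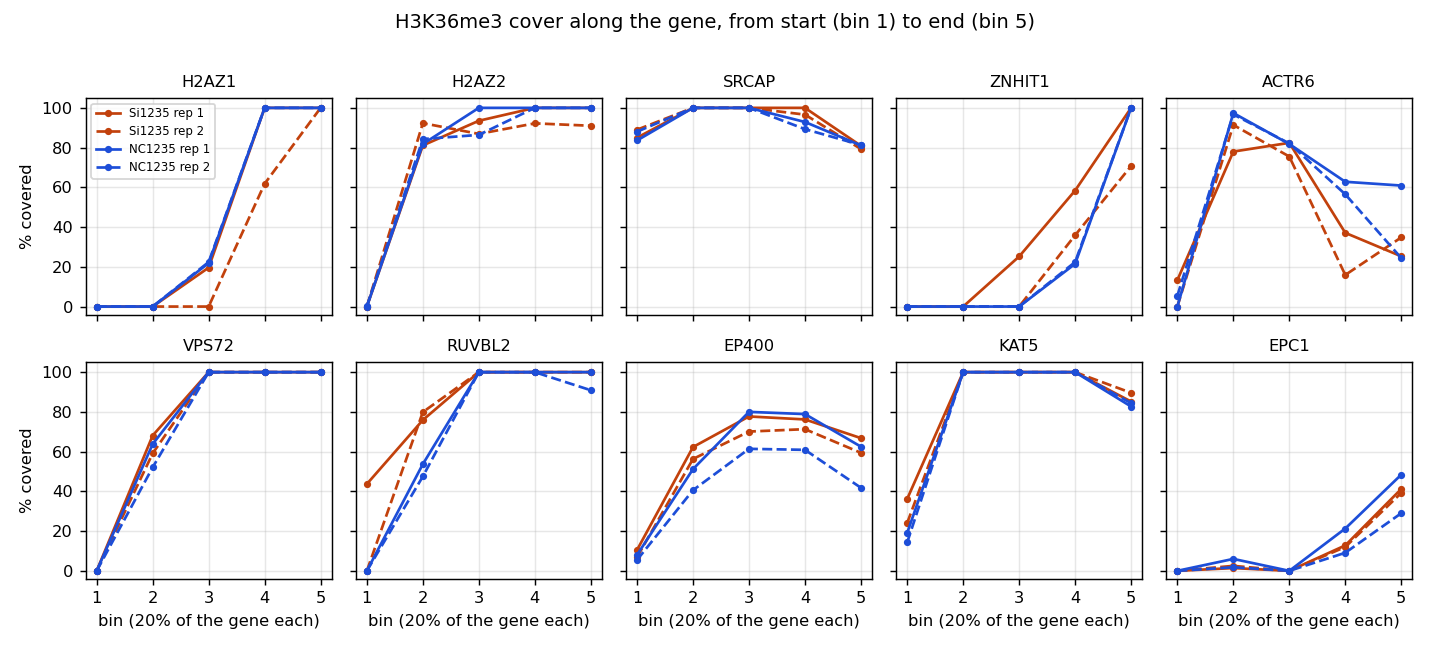
H3K36me3 cover (percent) of 5 equal bins of the gene from start to end, 1 panel per gene, with lines for the 2 Si1235 and 2 NC1235 libraries. Cover is at or near 0 in bin 1 of H2AZ1, H2AZ2, ZNHIT1, VPS72 and EPC1, is high throughout SRCAP, and separates the arms in bin 2 of RUVBL2 and bin 4 of ACTR6.

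H3K9ac, with 1 library per arm and so no test, covered 100% of the window in both arms at 7 of the 10 genes. That state was found at 24.6% of 17933 protein-coding and long non-coding genes with mean cover of at least 5%. Other SRCAP and TIP60 subunits such as YEATS4, ACTB and EPC2 were in it too, while others such as RUVBL1 and DMAP1 were not. H3K9ac was lower by at least 10 points in Si1235 at H2AZ2 and VPS72, a difference found at 15.4% of genes. None of the 10 differed by 20 points or more (7.71% of genes did). In the ChIRP library 1 of the 10 genes, SRCAP, had a peak in its promoter window (12.6% of 31788 genes did), and 5 had at least 1 in the gene body (55.5% of 38147 genes did).

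Of 35 further genes of the pathway, 34 were tested for H2AZ, 34 for H3K27ac and 29 for H3K36me3. For H2AZ and H3K36me3 0 passed (limma, 0.0% of all tested genes), with 3 and 1 at an unadjusted p under 0.05, and for H3K27ac 1 passed, against 0.516% of all tested genes. It was UCHL5, the deubiquitinase of the INO80 remodelling complex, for H3K27ac, with 100% in both Si1235 libraries, against 92.85 and 93.1% in NC1235 (7.03 points; limma adjusted p = 0.0154). The Si1235 values were at the ceiling of the measure, and the call was lost without Si1235 replicate 1 or 2 (limma adjusted p = 0.0716 and 0.102), after quantile normalization (0.12), in the 2.5 and 5 kb windows (0.143 in each) and with a replicate block (0.285). Among 14 other subunits of the SRCAP and TIP60 complexes none passed for any mark. The largest H2AZ difference among them was at ACTB, the actin shared by the complexes, with 43.85 and 30.0% in Si1235, against 16.05 and 16.5% in NC1235 (20.65 points; limma adjusted p = 0.801). For H3K27ac 5 of these 14 were apart and higher in Si1235 and 2 apart and lower (23.2 and 17.7% of all tested genes). For H3K36me3 1 was apart and higher and 4 apart and lower (20.3 and 13.7% of all tested genes). MBTD1, a subunit with methyl-lysine-binding repeats, was higher by 9.43 points for H3K27ac (limma adjusted p = 0.379). ING3, a histone mark reader of the TIP60 complex, was lower in both Si1235 libraries for H3K27ac (-12.0 points, and -4.75 without Si1235 replicate 1; limma adjusted p = 0.629) and H3K36me3 (-10.53 points; limma adjusted p = 0.781). Among the 12 INO80 subunits the actin-related ACTR8 differed most for H2AZ, with 65.55 and 59.1% in Si1235, against 73.3 and 79.05% in NC1235 (limma adjusted p = 0.848). It was lower in Si1235, whereas 7 of the 11 tested had positive differences (58.3% of all tested genes) and 4 negative, with a median of 2.15 points. Of the 11, 3 were apart and higher in Si1235 and 2 apart and lower (20.9 and 10.7% of all tested genes). For H3K27ac 2 of the 12 INO80 subunits were apart and higher and 4 apart and lower (23.2 and 17.7% of all tested genes). The 5 chaperones and readers of H2A.Z all had positive H2AZ differences, as had 58.3% of all tested genes, with a median of 6.9 points (all tested genes 1.2). Of the 5, 2 were apart and higher in Si1235, against 20.9% of all tested genes. At the nucleosome assembly protein gene NAP1L4, H2AZ covered 84.9 and 81.85% in Si1235, against 80.6 and 51.1% in NC1235. Its difference of 17.53 points (limma adjusted p = 0.903) was 2.78 without NC1235 replicate 2 and 32.28 without NC1235 replicate 1. The other was ANP32E, whose product removes H2A.Z from chromatin, at 3.12 points (limma adjusted p = 0.918). The 4 other replication-independent H2A variants had a median H2AZ difference of -0.12 points. Over all 35, the median H2AZ difference was 1.08 points, that of H3K27ac 0.0 and that of H3K36me3 0.97.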

How the data were processed

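ChIP-seq peak lists of HCC1954 cells in the Si1235 and NC1235 arms were analysed, 15 lists, 1 per library and none pooled. Reads were aligned to hg38 with Bowtie2 2.2.9 and MACS2 called the peaks (per the submitters' processing notes); those notes also name HTSeq 2.0.3 and DESeq2 1.22.2 without a role. MACS2 settings and its control are not given in the sources used here. Each deposited list holds a fold enrichment (a linear ratio of summit over local background), −log10 p-values and q-values and a score. The lists give peaks past a q-value threshold and no read depth, so counting error behind a cover value is unknown. In 2 lists, both H3K9ac, deposited peak names carry another residue, and the labels were followed.

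From the deposited peak positions the percent of each window or gene covered was computed. Starts came from the RefSeq promoter table (GRCh38.p14), taking the most upstream where there were several. For genes without an entry, VPS72 among them, the end with more cover of the other promoter marks was used, a rule that found the known start in 89.7 to 90.2% of genes where it could be checked. H3K36me3 was measured over protein-coding genes of at least 2 kb. Chromosomes 1 to 22 and X were used. Genes with mean cover of at least 5% were fitted with limma 3.58.1 in R 4.3.3 (eBayes with trend, no replicate term), with Benjamini-Hochberg adjustment over all tested genes of a mark and a threshold of 0.05. On simulated data the fit returned the differences put in, but none of them passed after adjustment. The changed genes had lower cover than any of the 10 promoters had for H2AZ or H3K27ac, and so lay further from the ceiling. In the real data the same fit called 80 H3K27ac genes, UCHL5 at 7.03 points among them. The simulation therefore does not tell how large a difference could be missed at the 10 genes. A miss of the threshold is still not evidence that the arms are the same. The genes and lists were chosen with earlier results of these data known. All 10 genes are named, and from each further list the 2 with the largest difference among those with non-overlapping arms for a mark were eligible to be named. Alternatives were windows of 2.5 and 5 kb, stricter peaks, equal peak numbers, no filter, quantile normalization, a replicate block and leaving out each library.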

Additional observations from a re-analysis of the deposited data

Results flagged for a closer look

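The ChIRP library lies outside the comparison of arms, has no replicate and no control library, and its captured RNA is not given, so its values are descriptions. A ChIRP peak overlapped (by at least 1 bp) the promoter window of 1 of the 10 genes, SRCAP, where 12.6% of 31788 genes had one. That peak lay at -460 to -205 bases from the SRCAP start, with a deposited fold enrichment of 18.4. At least 1 ChIRP peak lay in the body of 5 of the 10 genes, against 55.5% of 38147 genes: 6 peaks in EP400, 3 in SRCAP, 3 in RUVBL2, 1 in KAT5 and 1 in EPC1. Per 100 kb this came to 4.6 in EP400, 7.1 in SRCAP, 13.3 in RUVBL2, 13.2 in KAT5 and 0.9 in EPC1, beside a mean of 4.79 and a median of 3.73 over protein-coding genes. The KAT5 figure rested on 1 peak, which ran past the end of this 7.6 kb gene. H2AZ1, H2AZ2, ZNHIT1, ACTR6 and VPS72 had none.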

How the results depend on the processing

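Cover values limit these results in that a window at 100% cannot show more mark, peak edges depend on the caller's threshold, and 2 libraries per arm give a wide error. H2AZ called 0 genes under every alternative. The H3K27ac total of 80 became 7 with a window of 2.5 kb, 248 with 5 kb and 137 to 326 when a library was left out. The H3K36me3 total of 0 became 93 after quantile normalization and 37 to 114 when a library was left out. A replicate block took the H3K27ac total to 0 and left the H2AZ and H3K36me3 totals at 0. The correlation of same-numbered deviations was 0.184 for H2AZ, 0.0564 for H3K27ac and 0.296 for H3K36me3, and with only 2 pairs the number does not establish a pairing. With H3K9ac windows of 2.5 kb, 1 of the 10 genes passed 20 points in place of 0: SRCAP, with 62.48% in Si1235, against 83.18% in NC1235. Among the genes whose difference was not 0 (EPC1 was at 0 for H2AZ, SRCAP and RUVBL2 for H3K27ac), 87 of 99 alternative values for H2AZ, 83 of 88 for H3K27ac and 96 of 100 for H3K36me3 had the same direction. Many of these values could not turn. Dropping the filter or adding a replicate block leaves a difference unchanged, and of an arm's 2 leave-one-out values at least 1 keeps the sign. For H2AZ, stricter peaks and equal peak numbers also left the differences of the 10 genes unchanged. The counts are therefore no measure of robustness. The only values past the threshold were for H3K27ac at EPC1 with 1 Si1235 library left out, where both NC1235 libraries were at 100%. The KAT5 H2AZ difference was 6.44 points with a 2.5 kb window and 3.22 with 5 kb, and 19.92 to 23.18 when a library was left out. Leaving out 1 library gave 3.93 to 15.78 for H2AZ at ACTR6, and for H3K36me3 -15.21 to -7.64 at ACTR6 and 6.77 to 14.72 at RUVBL2. The sign turned for H2AZ at VPS72 with a 5 kb window (-0.04) and after quantile normalization (-1.18), and for H3K27ac at ACTR6 with a 5 kb window (-0.05). Leaving out 1 library turned the H2AZ sign at H2AZ1 (-16.35 to 2.7), H2AZ2 (-11.18 to 6.93), SRCAP (-11.58 to 22.52), VPS72 (-5.67 to 7.28), RUVBL2 (-22.82 to 6.98) and EP400 (-14.02 to 12.32). It did so for H3K27ac at H2AZ1 (-10.3 to 2.1), H2AZ2 (-1.9 to 1.2) and KAT5 (-3.0 to 15.0), and for H3K36me3 at ZNHIT1 (-3.08 to 12.34), VPS72 (-0.04 to 2.29), EP400 (-0.37 to 13.73) and EPC1 (-4.25 to 2.94). The causes were not tested. Measuring H3K36me3 over stretches no other gene overlaps was chosen after seeing the data and called 0 genes.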

Other observations

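The genes whose cover was most like that of H2AZ1 over the 14 ChIP libraries, out of 17278 genes compared, were the mitochondrial ribosomal protein gene MRPL30, the glycosyltransferase gene ALG2 and the BH3-only gene PMAIP1. Their mean absolute differences from H2AZ1 were 2.96, 3.4 and 3.57 percentage points, where the median over all genes was 32.84. For H2AZ2 they were the RNA-binding protein gene TARDBP at 3.39 points, the rRNA methyltransferase gene FTSJ3 at 3.57 and the nucleolar gene RSL1D1 at 3.78, beside a median of 35.6. H2AZ1 and H2AZ2 differed from each other by 17.15 points.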
